A study of Rattus norvegicus with 6 samples.

Results

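The genes described here belong to the integrated stress response and the unfolded protein response, the programmes by which a cell answers blocked translation, amino acid shortage and misfolded protein in the endoplasmic reticulum (ER). The list holds 44 of the 22574 gene symbols of the count table, 22 in an integrated stress response arm (Nupr1 with targets and partners of ATF4 and CHOP) and 22 in an unfolded protein response arm (sensors, ER chaperones and ER-associated degradation). The members were chosen by symbol, with the comparison of these same libraries already known. Nupr1 had already been singled out for its rise. The members' differences between the groups are therefore given as a description, and no member's p-value is printed. Calls of members, as defined below, are part of that description and not a test of the list.

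RNA was sequenced from RASMCs, primary smooth muscle cells taken from the aorta of male Sprague-Dawley rats and checked by the study for purity with an α-SMA stain. 3 libraries came from cells stimulated with citrullinated histone H3 and double-stranded DNA (CitH3+dsDNA), which are components of extracellular traps, and 3 libraries came from control cells given bovine serum albumin (BSA). No genetic change was made in either group. The comparison asks how the traps' components change the mRNA of smooth muscle cells. The study states, for its in vitro experiments in general, that replicate wells held cells of the same rat. The labels do not name the rat of a library. If the statement holds for these 6 libraries, their spread reflects culture and library preparation and not differences between animals.

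When protein folding or amino acid supply fails, kinases phosphorylate the translation initiation factor eIF2, most mRNAs are translated less, and the mRNA of ATF4 is translated more. ATF4, often together with CHOP (the product of Ddit3), then drives genes for amino acid uptake and synthesis and for feedback. Misfolded protein in the ER is sensed by PERK (Eif2ak3), IRE1α (Ern1) and ATF6, of which IRE1α splices the mRNA of Xbp1, and XBP1 and ATF6 raise ER chaperones and the degradation machinery. In smooth muscle of the diseased arterial wall this response is known to accompany cholesterol loading and cell death.

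The deposited values were raw counts per gene, 17573905 to 18742395 in total per library. edgeR's quasi-likelihood test covered the 12591 genes with enough counts, and a gene is called here when its Benjamini-Hochberg adjusted p over all of them is under 0.05. Levels are CPM, counts scaled to a common library size after TMM, and differences are log2 fold changes of CitH3+dsDNA against control. Of all genes tested, 2.20% were called, 1.94% higher and 0.262% lower, the median log2 fold change was -0.0013, and the middle 95% of genes lay between -0.35 and 0.53. An unadjusted p under 0.05 was reached by 13.9% of all genes tested. Of the smooth muscle markers examined, 4 of 8 were called lower after CitH3+dsDNA (Acta2, Tagln, Cnn1 and Smtn, log2 fold changes -1.57 to -0.21), and their summed level was 8415 to 8944 CPM against 11163 to 11998 CPM in controls, with Acta2 and Tagln a large share of that sum. The other 4 were not called: Cald1 was at 0.16 with its CitH3+dsDNA libraries above the controls, and Myh11, Myl9 and Des, at 0.06, -0.05 and -0.06, overlapped between the groups. The macrophage and leukocyte markers summed to 72.7 to 74.97 CPM against 73.5 to 76.6 CPM, with the defining Ptprc and Itgam at no more than 1 count in any library and most of the sum from Cd14 and Csf1r. Of these 8 markers 5 were tested, and in all 5 the groups overlapped, among them Cd68 at a log2 fold change of 0.19. Aif1, too scarce to be tested, had 8, 9 and 9 counts after CitH3+dsDNA against 2, 2 and 3 in controls. The 5 endothelial markers summed to 6.004 to 6.34 CPM against 6.52 to 7.45 CPM, and the 3 fibroblast markers to 1.32 to 1.71 CPM against 0.916 to 1.51 CPM. Some of the smooth muscle markers thus moved with the groups while others did not, and their part in the differences below was not tested. In such bulk samples fewer cells of a type and less RNA per cell cannot be told apart.

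All 44 members had enough counts to be tested, and 4 of them were called, all higher after CitH3+dsDNA. These were Nupr1, Ern1, Atf4 and Slc7a11, which make up 9.09% of the members, against 2.20% of all genes tested. The list was drawn up with this comparison known, so the shares are a description. DESeq2 also called 4 members. The integrated stress response arm held 3 of the 4 and had a median log2 fold change of -0.03. The unfolded protein response arm held the other, Ern1, and had a median of -0.01. Both medians lay close to that of all genes tested. The 40 members that were not called had log2 fold changes between -0.21 and 0.10. For 39 of these 40 the whole 95% interval lay within a 1.25-fold difference in either direction, the exception being the scarce Atf3. The groups did not overlap in 12 of the 44 members (27.3%), 6 of them higher and 6 lower after CitH3+dsDNA, and in 19.1% of all genes tested.

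**Figure D1:**
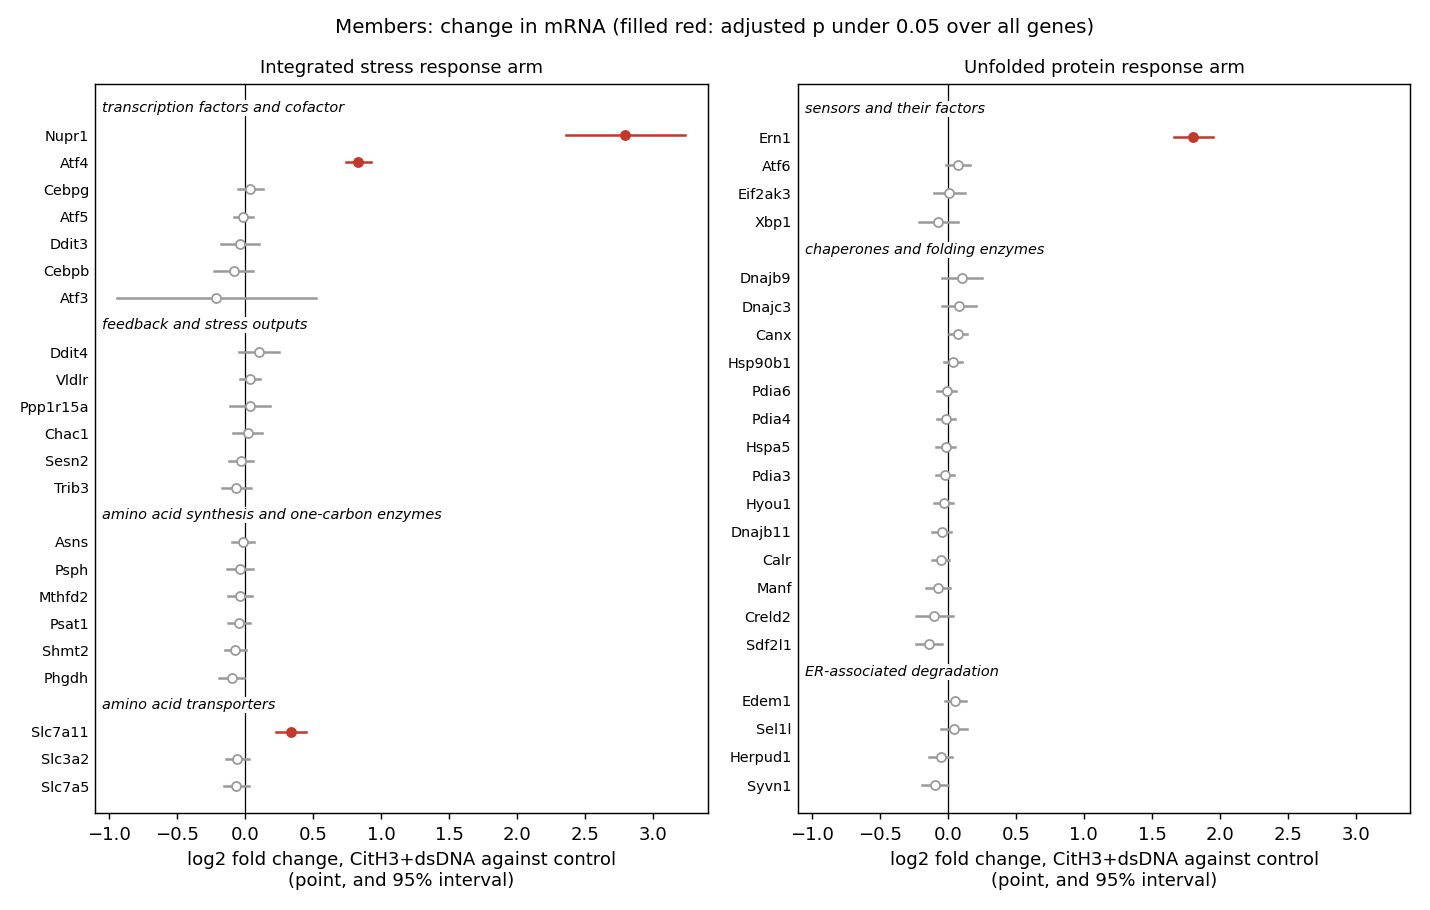
Log2 fold change of each of the 44 members, CitH3+dsDNA against control (n = 3 libraries each), on a log2 axis with the 95% interval as a bar, the members grouped by role in 2 panels for the 2 arms. Filled red points mark the 4 called members, Nupr1, Atf4, Slc7a11 and Ern1, and the 40 open points lie between -0.21 and 0.10.

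Nupr1 encodes a small stress-induced chromatin cofactor of the CHOP and ATF4 network, and it had the largest difference of all members. Its counts were 199, 193 and 312 after CitH3+dsDNA and 34, 33 and 36 in controls. The groups did not overlap, and CitH3+dsDNA replicate 3 stood above the other two. In CPM these counts are 13.0 ± 3.59 (SD, n = 3) against 1.87 ± 0.0849 (SD, n = 3). On the log2 scale the difference was 2.79 ± 0.20 (SE), with a 95% interval of 2.36 to 3.23. Among the 12591 genes tested, ordered from the largest rise, Nupr1 was number 9. Leaving out each library in turn gave values of 2.54 to 2.90.

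The 150 bases before the RefSeq start of Nupr1 (GRCr8, chr1:190645902-190646051, minus strand) are shown because they hold a match to the core of the C/EBP-ATF response element, the composite site at which ATF4 pairs with C/EBP proteins. The core searched was TGATGCAA on either strand, and the capitals mark it, here in the reverse orientation and beginning 55 bases before the start.
Nupr1: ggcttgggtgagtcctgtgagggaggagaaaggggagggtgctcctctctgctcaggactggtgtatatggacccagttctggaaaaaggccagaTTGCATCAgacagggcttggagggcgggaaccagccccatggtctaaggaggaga

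Atf4 encodes the transcription factor at the centre of the integrated stress response. Its counts were 21234, 21230 and 22300 after CitH3+dsDNA against 11450, 12321 and 13345 in controls. Every CitH3+dsDNA library lay well above every control. The level was 1201 ± 28.8 CPM (SD, n = 3) against 675 ± 39.9 CPM (SD, n = 3), and the groups differed by 0.83 ± 0.04 on the log2 scale (SE, 95% interval 0.74 to 0.92). ATF4 is controlled mostly through translation, which counts of its mRNA do not report.

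The other transcription factors of the arm were not called. Ddit3, which encodes CHOP, had counts of 2339, 2431 and 2570 against 2706, 2676 and 2296. The 2 groups overlapped, with control replicate 3 the lowest of all 6 libraries, and the log2 fold change was -0.04 (95% interval -0.18 to 0.10). Atf5, a factor that ATF4 and CHOP induce, had 24236, 23777 and 24796 counts against 25072, 25429 and 24405. Its level was thus measured to within a few percent in both groups, 1351 ± 14.7 CPM against 1363 ± 45.3 CPM (SD, n = 3 each). The log2 fold change of Atf5 was -0.01 (95% interval -0.08 to 0.06). Cebpb and Cebpg encode C/EBP partners of ATF4. The level of Cebpb was 157 to 185 CPM against 174 to 202 CPM, and that of Cebpg 126 to 136 CPM against 124 to 130.5 CPM. In both the groups overlapped. Atf3, an early stress factor, had 13, 18 and 13 counts against 18, 12 and 22. At so few counts the interval of its log2 fold change, -0.94 to 0.52 around -0.21, leaves a difference of either sign possible.

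The rise of Atf4 can be set against its own partners within a library, which removes the scaling between libraries. For every 100 counts of Atf5 there were 87.6, 89.3 and 89.9 counts of Atf4 after CitH3+dsDNA and 45.7, 48.5 and 54.7 in controls. For every 100 counts of Ddit3 there were 908, 873 and 868 counts of Atf4 against 423, 460.4 and 581. For every 100 counts of Asns, a target gene of ATF4, there were 560, 556 and 550.2 counts of Atf4 against 284, 304 and 338. The mean ratio was 1.79, 1.81 and 1.80 times as large after CitH3+dsDNA, in that order, and no ratio overlapped between the groups. Atf5, Ddit3 and Asns had log2 fold changes of -0.01, -0.04 and -0.02, so the 3 ratios restate the difference of Atf4. These ratios compare the groups and not the levels of different genes, since counts also depend on transcript length. The 7 factors together summed to 2967 to 3036 CPM against 2459 to 2530.2 CPM, a difference carried by Atf4, since 5 of the 7 were not called and the median log2 fold change of the 7 was -0.01.

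The feedback and stress outputs of the arm were not called in edgeR (0 of 6, against 2.20% of all genes tested). At an unadjusted p under 0.05 were 0, and DESeq2 called 0. In a group of 6 genes, 0 calls are near the share of all genes. Ddit4, which restrains mTORC1, had 560, 589 and 587 counts against 573, 519 and 558. Trib3, a pseudokinase that dampens ATF4 and AKT signalling, had 4233, 4077 and 4129 counts against 4623, 4529 and 4090. Chac1, a glutathione-degrading enzyme induced by ATF4, had 1842, 1767 and 1748 counts against 1837, 1848 and 1699. In each of the 3 genes the groups overlapped, and the log2 fold changes were 0.10, -0.06 and 0.02 (95% intervals -0.05 to 0.25, -0.17 to 0.05 and -0.09 to 0.13). Ppp1r15a encodes GADD34, the subunit that directs a phosphatase back to eIF2. Its level was 303 to 311 CPM after CitH3+dsDNA and 258 to 329 CPM in controls, so that the controls spanned the other group. Sesn2, a leucine sensor that restrains mTORC1, lay at 162 to 170.5 CPM against 162 to 176 CPM. Vldlr, a lipoprotein receptor induced through ATF4, lay at 364 to 372 CPM against 349 to 369 CPM. Over the 6 outputs the summed level was 1195 to 1220 CPM against 1126 to 1267 CPM.

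The enzymes of amino acid synthesis and one-carbon metabolism, the best known metabolic targets of ATF4, were not called either. In edgeR 0 of 6 were called, against 2.20% of all genes tested, with 1 at an unadjusted p under 0.05 and 0 called by DESeq2. All 6 had a negative log2 fold change, between -0.10 and -0.02. Asns, which makes asparagine, had 3794, 3820 and 4053 counts against 4027, 4050 and 3954. Of the serine pathway, Phgdh, its first enzyme, had 2682, 2888 and 2799 counts against 3026, 3071 and 3048. Phgdh had every CitH3+dsDNA library below every control, at a log2 fold change of -0.10 (95% interval -0.19 to -0.01). The groups did not overlap in this 1 of the 6 enzymes (16.7%), against 19.1% of all genes tested. Psat1 and Psph, the next enzymes of that pathway, lay at 158 to 169 CPM against 166 to 173 CPM and at 57.0 to 58.6 CPM against 57.4 to 61.9 CPM. The mitochondrial folate enzymes Shmt2 and Mthfd2 lay at 191 to 199 CPM against 198 to 206 CPM and at 312 to 319 CPM against 304 to 334 CPM. The groups overlapped in these 4 genes. The summed level of the 6 enzymes was 1077 to 1116 CPM against 1110.0 to 1158 CPM.

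Of the 3 amino acid transporters, Slc7a11 was called and its partner was not. Slc7a11 encodes xCT, the light chain of the cystine and glutamate exchanger that supplies cysteine for glutathione. Its counts were 959, 871 and 964 after CitH3+dsDNA against 717, 786 and 752 in controls. The groups did not overlap. The level was 51.8 ± 2.06 CPM (SD, n = 3) against 41.0 ± 1.17 CPM (SD, n = 3), and the difference on the log2 scale was 0.34 ± 0.05 (SE, 95% interval 0.22 to 0.45). Slc3a2 encodes the heavy chain that carries xCT and other light chains to the cell surface, and it had 16456, 16435 and 15853 counts against 17372, 17720 and 16643. Slc7a5, the light chain that takes up leucine with the same heavy chain, had 4052, 3913 and 4077 counts against 4393, 4382 and 4046. The groups overlapped in both genes, whose log2 fold changes were -0.06 each. For every 100 counts of Slc3a2 there were 5.83, 5.30 and 6.08 counts of Slc7a11 against 4.13, 4.44 and 4.52, a mean ratio 1.32 times as large after CitH3+dsDNA.

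**Figure D2:**
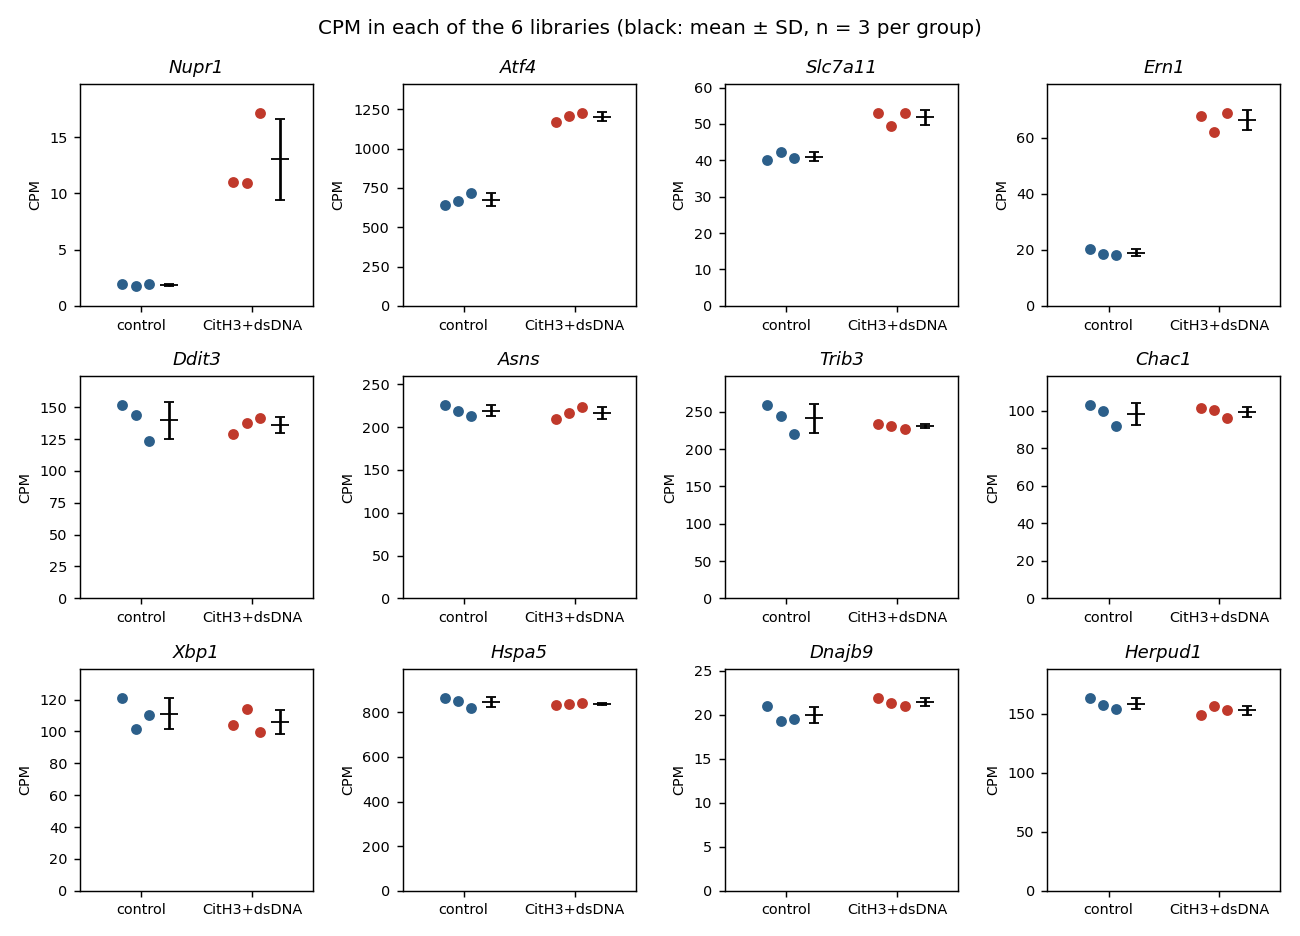
Level in CPM (linear axis from 0) of 12 members in each library, controls in blue and CitH3+dsDNA in red, with the group mean ± SD (n = 3) in black. In Nupr1, Atf4, Slc7a11 and Ern1 the groups do not overlap, whereas in Ddit3, Asns, Trib3, Chac1, Xbp1, Hspa5 and Herpud1 they do, and in Dnajb9 they are apart by a log2 fold change of 0.10.

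In the unfolded protein response arm, Ern1 was the only member called. It encodes IRE1α, the ER kinase and endoribonuclease that splices Xbp1 mRNA. Its counts were 1228, 1096 and 1252 after CitH3+dsDNA and 365, 343 and 335 in controls. The groups stood far apart, and both were narrow. The level was 66.3 ± 3.61 CPM (SD, n = 3) against 19.0 ± 1.28 CPM (SD, n = 3). This is a log2 fold change of 1.80 ± 0.07 (SE, 95% interval 1.66 to 1.95). Ordered from the largest rise, Ern1 was number 57 of the genes tested.

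The mRNAs of the other sensors and of the factor downstream of IRE1α were not called. Eif2ak3, which encodes PERK, had 906, 891 and 869 counts against 866, 870 and 962. Atf6, which encodes the sensor that is cut in the Golgi to a transcription factor, had 5372, 5029 and 5602 counts against 4959, 5444 and 5062. Xbp1, the substrate of IRE1α, had 1882, 2016 and 1808 counts against 2164, 1889 and 2044. In the 3 genes the groups overlapped, at log2 fold changes of 0.01, 0.08 and -0.07 (95% intervals -0.10 to 0.12, -0.01 to 0.16 and -0.21 to 0.07). The counts are per gene, so spliced and unspliced Xbp1 were not separated. For every 100 counts of Xbp1 there were 65.2, 54.4 and 69.2 counts of Ern1 against 16.9, 18.2 and 16.4, a mean ratio 3.67 times as large. Against Eif2ak3 the mean ratio was 3.46 times as large.

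None of the 14 chaperones and folding enzymes of the ER was called in edgeR, against 2.20% of all genes tested. At an unadjusted p under 0.05 were 2, 1 higher and 1 lower, and DESeq2 called none of the 14. Their log2 fold changes ran from -0.14 to 0.10, and for all 14 the 95% interval lay within a 1.25-fold difference in either direction. Hspa5 encodes BiP, the chaperone whose release activates the sensors, and it had 15071, 14727 and 15260 counts against 15446, 15784 and 15209. The level of Hspa5 was 836 ± 4.73 CPM (SD, n = 3) against 845 ± 23.5 CPM (SD, n = 3), with a log2 fold change of -0.02 (95% interval -0.08 to 0.05). Hsp90b1 encodes GRP94, the ER member of the HSP90 family, and lay at 1063 to 1109 CPM against 1040.5 to 1063 CPM. Hspa5 and Hsp90b1 thus overlapped between the groups, as did the disulphide isomerases Pdia3, Pdia4 and Pdia6, whose log2 fold changes were -0.02, -0.01 and -0.01. The summed level of the 14 genes was 8457 to 8536 CPM after CitH3+dsDNA and 8542 to 8614 CPM in controls, a difference in means of -0.963%.

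Within that narrow range 6 of the 14 (42.9%) had groups that did not overlap, 2 higher and 4 lower, against 19.1% of all genes tested. The lectin chaperones went opposite ways: Canx (calnexin) lay at 713 to 738 CPM against 679 to 696 CPM, and Calr (calreticulin) at 1927 to 1977 CPM against 2022 to 2042 CPM. Their log2 fold changes were 0.08 and -0.05. Sdf2l1, a partner of ERdj3 in holding unfolded chains, had 2424, 2545 and 2377 counts against 2711, 2822 and 2716. Its log2 fold change of -0.14 (95% interval -0.23 to -0.04) was the lowest of the 14. Dnajb9 encodes ERdj4, a co-chaperone of BiP that acts on IRE1α and is a common marker of XBP1 activity, and it had 398, 376 and 382 counts against 375, 359 and 362. Its groups were barely apart, at 21.0 to 21.9 CPM against 19.3 to 21.0 CPM, and the log2 fold change was 0.10 (95% interval -0.04 to 0.25). Dnajb11 (ERdj3) lay at 286 to 293 CPM against 297 to 301 CPM, and Hyou1 (GRP170, the exchange factor of BiP) at 295 to 299 CPM against 299.6 to 309 CPM. Both were lower without overlap, by less than 0.05 on the log2 scale. The groups overlapped in Dnajc3 (p58IPK, an inhibitor of PERK), at 47.0 to 49.1 CPM against 42.4 to 48.7 CPM. They also overlapped in the secreted ER stress proteins Manf and Creld2, at log2 fold changes of -0.07 and -0.10.

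The genes of ER-associated degradation, which return misfolded proteins to the cytosol for the proteasome, were not called in edgeR. Of the 4, 0 were called, against 2.20% of all genes tested, with 0 at an unadjusted p under 0.05 and 0 called by DESeq2. Herpud1, a scaffold of the complex that ER stress induces strongly, had 2698, 2761 and 2778 counts against 2919, 2921 and 2859. Its log2 fold change was -0.05 (95% interval -0.14 to 0.03), and the groups overlapped. Sel1l and Syvn1, the adaptor and the ubiquitin ligase of the complex, lay at 387 to 424 CPM against 382 to 418 CPM and at 73.9 to 77.0 CPM against 78.2 to 84.9 CPM. Syvn1 was lower without overlap, at a log2 fold change of -0.09. That is 1 of the 4 genes (25%), against 19.1% of all genes tested. Edem1, a lectin that picks substrates, lay at 267 to 287 CPM against 266 to 268 CPM. The 4 genes summed to 885 to 936 CPM against 886 to 916 CPM.

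The members' promoters were compared for the response elements of both pathways, since some members share an element and yet differ in response. RefSeq promoters of GRCr8, from 250 bases before to 50 bases after the start, were at hand for 38 of the 44 members. Atf3, Atf6, Ern1, Pdia3, Pdia6 and Manf had no entry. The counts had been made on another build, Rnor6.0, so that only names join the 2. The core TGATGCAA, searched on either strand, occurred in 266 of 33469 promoters (0.795%), and among the members in those of Nupr1, Chac1 and Herpud1. Only these exact 8 letters were counted, so a site that differs from them by a base was missed. The stretches of Chac1 (chr3:126795944-126795991, plus strand) and Herpud1 (chr19:10614864-10614911, minus strand) are given for comparison with that of Nupr1, with the core in capitals.
Chac1: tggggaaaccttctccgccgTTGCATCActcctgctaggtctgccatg
Herpud1: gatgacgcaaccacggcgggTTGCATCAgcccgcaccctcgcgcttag

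The core lay in the same orientation in all 3 promoters, beginning 55, 167 and 184 bases before the start. Nupr1 was called higher, while Chac1 and Herpud1 had log2 fold changes of 0.02 and -0.05. Over all genes with the core in the promoter table, 58 were tested and 2 were called, Nupr1 and Irf3, both higher. This is 3.45%, against 2.20% of all genes tested. A match of letters is a description and does not show that a factor binds there.

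The ER stress response element, bound by ATF6 and XBP1 with NF-Y, was searched as CCAAT, 9 bases of any kind and CCACG, on either strand. It was found in 22 of the 33469 promoters (0.0657%), 7 of them those of unfolded protein response members, out of 17 such members in the table, and in none of the 21 integrated stress response members in the table. The 7 were Hspa5, Hsp90b1, Creld2, Canx, Xbp1, Dnajc3 and Calr, of which Hspa5, Hsp90b1 and Calr are textbook cases of the element. The element is shown in capitals in Hspa5 (the 150 bases at chr3:38452866-38453015, plus strand), Xbp1 (chr14:84604538-84604596, plus strand), Dnajc3 (chr15:102432514-102432572, plus strand) and Canx (chr10:35158049-35158107, minus strand), to let the fixed ends and the free spacer be compared.
Hspa5: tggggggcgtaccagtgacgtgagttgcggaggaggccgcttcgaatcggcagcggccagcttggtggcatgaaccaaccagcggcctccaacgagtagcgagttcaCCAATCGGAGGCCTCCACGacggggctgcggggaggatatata
Xbp1: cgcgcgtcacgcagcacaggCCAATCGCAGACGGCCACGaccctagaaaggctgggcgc
Dnajc3: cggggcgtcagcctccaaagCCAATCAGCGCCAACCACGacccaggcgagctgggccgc
Canx: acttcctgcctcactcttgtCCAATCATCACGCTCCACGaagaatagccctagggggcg

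The element began 43 bases before the start in Hspa5, 65 in Xbp1, 133 in Dnajc3 and 230 in Canx. Hsp90b1 had it in both orientations, beginning 176 and 72 bases before the start. Of the 15 tested genes with the element, 0 were called by edgeR, against 2.20% of all genes tested. At an unadjusted p under 0.05 were 2, against 13.9% of all genes tested, and DESeq2 called 0. The 8 of them that are not members had log2 fold changes of -0.06 to 0.17. Ern1 was called higher but had no promoter entry, so it could not be searched for this element. Whether its rise bears on the genes with the element was not tested.

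A second form of the element, ATTGG, 1 base of any kind and CCACG, on either strand, occurred in 17 promoters (0.0508%), among them those of Hyou1, Dnajb11 and Herpud1. Of 11 tested genes with it, 1 was called, Cdc27, higher (9.09%, against 2.20% of all genes tested). The unfolded protein response element TGACGTGG, the XBP1 site without NF-Y, occurred on either strand in 199 promoters (0.595%), and Hyou1 was the only member with it. In Hyou1 the second element began 188 and again 88 bases before the start. The stretch of Hyou1 with the match at 188 bases (chr8:53602674-53602724, plus strand) is shown because the second element, in capitals, there overlaps the end of TGACGTGG.
Hyou1: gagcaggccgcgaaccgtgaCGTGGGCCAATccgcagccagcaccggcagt

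Of the 91 tested genes with TGACGTGG, 4 were called (4.4%), all higher. Of all genes tested, 2.20% were called, 1.94% of them all being called higher. DESeq2 called 3 of the 91, and Hyou1 had a log2 fold change of -0.03.

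**Figure D3:**
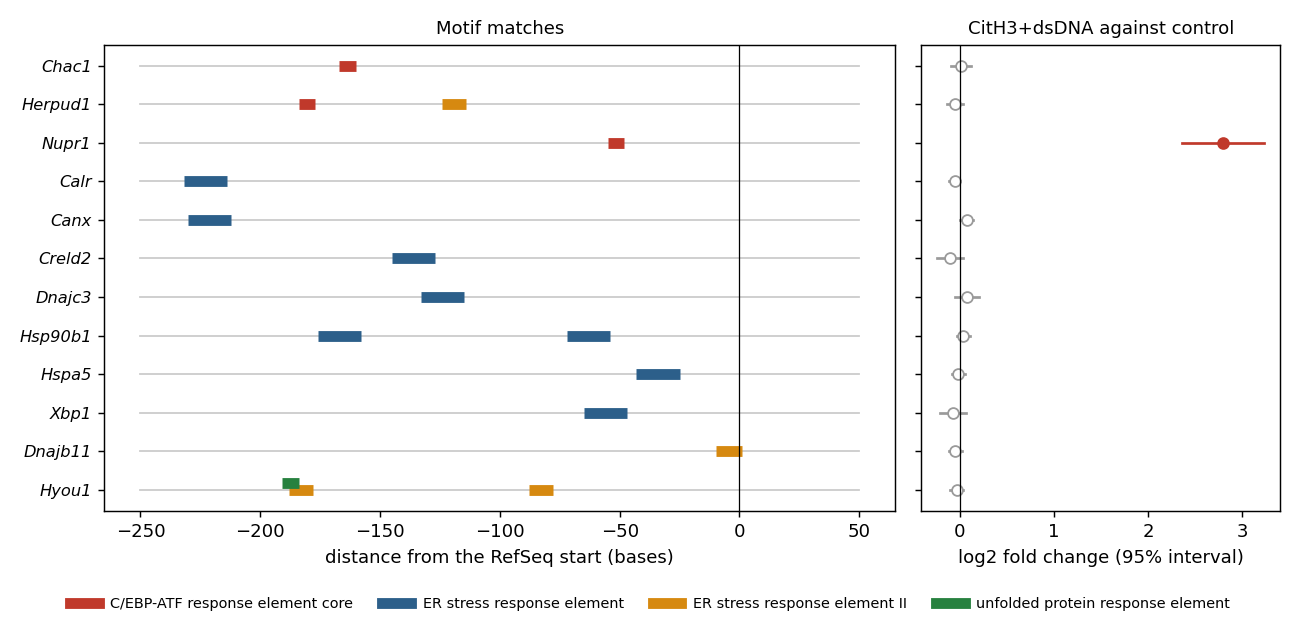
Left, position of each matched element in the promoters of the 12 members that hold one, as distance in bases from the RefSeq start, coloured by element; right, log2 fold change of the same members with the 95% interval. Nupr1 (filled red) is the only one called, and the other 11 lie between -0.10 and 0.08.

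Beyond the members, 149 other genes of these and neighbouring stress pathways were taken from textbook roles, with earlier results of these data known. The shares and p-values given for them are therefore a description. Of the 149, 146 had a row and 140 were tested. Of these 2 were called (1.43%), Bcl2l11 higher and Aldh18a1 lower, against 2.20% of all genes. An unadjusted p under 0.05 was reached by 21 of the 140, 11 higher and 10 lower, against 13.9% of all genes tested. DESeq2 called 1 of the 140, Bcl2l11. The 95% interval reached beyond a 1.25-fold difference in 15 of the 138 that were not called. The median log2 fold change was -0.02.

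Bcl2l11 encodes BIM, a pro-apoptotic BH3-only protein that CHOP is known to induce. It had counts of 281, 250 and 222 after CitH3+dsDNA against 56, 55 and 54 in controls. The groups did not overlap, and the control counts were 3 consecutive integers, which was so in 73 of the 12591 genes tested and in no other pathway gene. The level was 14.0 ± 1.64 CPM (SD, n = 3) against 3.004 ± 0.119 CPM (SD, n = 3). That is a log2 fold change of 2.22 ± 0.13 (SE), with an adjusted p of 1.21e-07 in edgeR with Benjamini-Hochberg adjustment. The other 11 tested outputs of ATF4 and CHOP were not called. For 6 of these 11 the 95% interval reached beyond a 1.25-fold difference, so that for them a difference of that size remains possible. Bbc3 and Gadd45a are not among those 6, with intervals of -0.28 to 0.04 and -0.14 to 0.14. Bbc3, which encodes PUMA, another BH3-only protein, had 389, 362 and 396 counts against 448, 412 and 406. Gadd45a, a growth arrest gene, had 3772, 3558 and 3816 counts against 4057, 3954 and 3360. Gdf15 and Fgf21, which encode secreted stress hormones, had 11 to 33 and 9 to 28 counts over all libraries, and their intervals, -0.87 to 0.73 and -0.33 to 1.26, leave sizeable differences possible. Stc2 and Cebpd were as scarce, with intervals of -1.42 to 0.66 and -1.03 to 0.71.

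Aldh18a1 encodes the first enzyme of proline synthesis. It had counts of 38, 41 and 55 after CitH3+dsDNA against 39, 361 and 389 in controls. Control replicate 1 therefore lay within the CitH3+dsDNA range, and the difference rests on the other two controls. The log2 fold change was -2.52 ± 0.58 (SE), with an adjusted p of 0.0418 in edgeR with Benjamini-Hochberg adjustment. Without control replicate 1 it was -3.02 (adjusted p = 7.67e-08 in edgeR), and it was no longer called when any one of the other 5 libraries was left out (adjusted p 0.0726 to 0.227 in edgeR).

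For comparison with the lists that follow, 2.20% of all genes tested were called and 13.9% reached an unadjusted p under 0.05. The 20 cytosolic aminoacyl-tRNA synthetases, many of which ATF4 induces, included 0 calls in edgeR, with 2 at an unadjusted p under 0.05 (Eprs and Rars, at log2 fold changes of 0.11 and -0.15) and 0 calls by DESeq2. For all 20 the 95% interval lay within a 1.25-fold difference in either direction. Of the eIF2 kinases and the eIF2 cycle, 0 of 15 were called in edgeR (4 at an unadjusted p under 0.05, 0 by DESeq2). Eif2ak2 encodes PKR, the eIF2 kinase that double-stranded RNA activates. Its counts were 371, 403 and 443 against 315, 333 and 378, a log2 fold change of 0.27 ± 0.09 (SE, adjusted p = 0.149 in edgeR). In the ER itself, 0 of 30 translocon and other folding genes were called in edgeR (7 at an unadjusted p under 0.05, 0 by DESeq2), at log2 fold changes of -0.11 to 0.19. Likewise 0 of 18 other degradation genes (1 at an unadjusted p under 0.05, 0 by DESeq2) and 0 of 11 other regulators (3 at an unadjusted p under 0.05, 0 by DESeq2) were called in edgeR. Edem3, a mannosidase of the degradation pathway, came nearest, with 1305, 1323 and 1191 counts against 1003, 1092 and 1209, a log2 fold change of 0.24 ± 0.06 (SE, adjusted p = 0.0810 in edgeR).

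**Figure D4:**
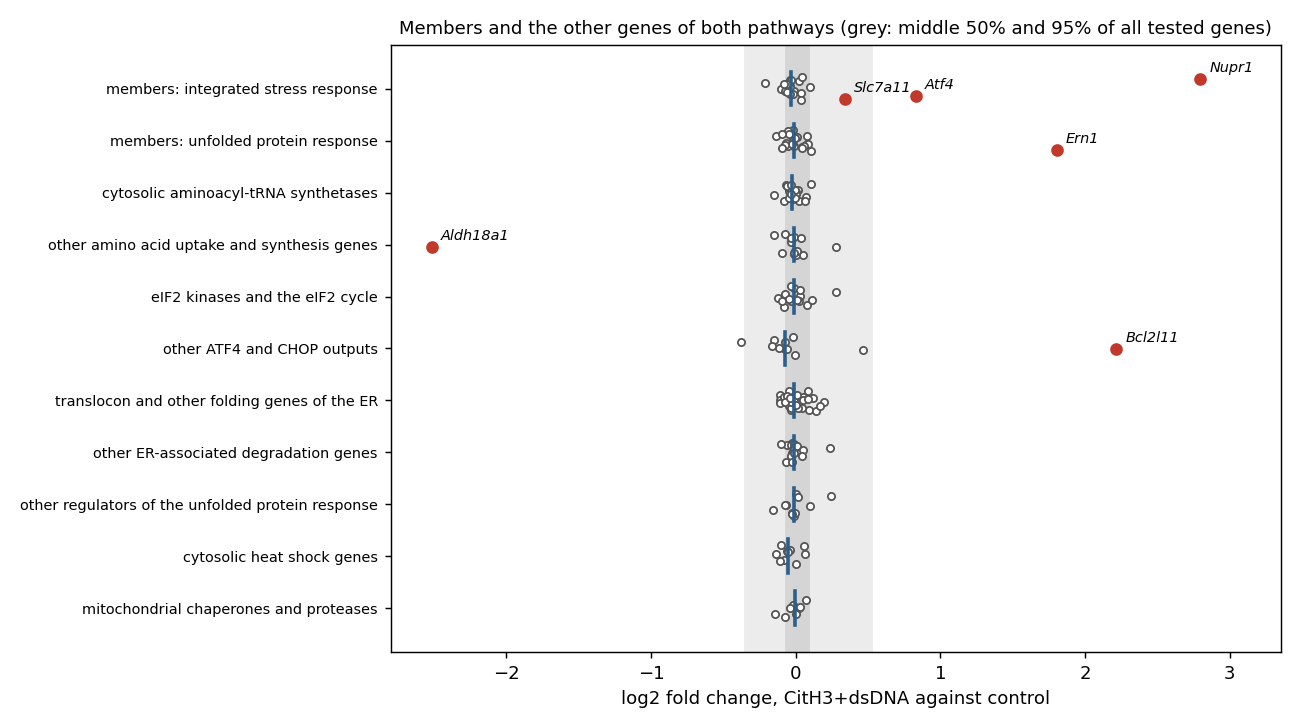
Log2 fold change of the tested genes of both arms and of 9 other pathway lists, 1 point a gene, with the list median as a blue bar, called genes in red, and the middle 50% and 95% of all 12591 genes as grey bands. Nupr1, Ern1, Atf4, Slc7a11 and Bcl2l11 stand to the right and Aldh18a1 to the left, and the list medians run from -0.0757 to -0.00614.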

How the data were processed

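The authors used a stranded mRNA kit, aligned with TopHat to Rnor6.0 and obtained reads per gene with HTSeq. They deposited raw whole-number counts. The strand setting of the counting is not given in the sources used here, so reads of overlapping or antisense genes can be shared. Samples were grouped by their labels.

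The members and gene lists were chosen with earlier results of these data known. After filterByExpr and TMM scaling, the counts were tested, two-sided, with glmQLFit and glmQLFTest of edgeR 4.0.16 in R 4.3.3, with Benjamini-Hochberg adjustment over all 12591 genes tested and a threshold of 0.05. The standard error was obtained as the absolute unshrunken coefficient over the root of the F statistic, and the 95% interval uses the t quantile at the test's degrees of freedom. Every member is named, with all counts for those called, and other pathway genes are named when called, or otherwise as values only. 1 count corresponds to 0.0539 to 0.0567 CPM. Intervals cover these 6 libraries, not animals.

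Alternatives were DESeq2 1.42.0, 3 other scalings, 2 other filters (none, or at least 10 counts in every library), robust dispersions, the replicate number as a block, and omission of each library. The fits were tested on simulated data. No pair of replicates differed by as little as counting noise (chi-square per gene at least 3.38). Promoter sequences are RefSeq's for GRCr8.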

Additional observations from a re-analysis of the deposited data

How the results depend on the processing

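The same 4 members, Nupr1, Atf4, Slc7a11 and Ern1, were called under each of the 14 alternatives, and all 616 member values kept their direction if called and their side of the threshold. Over the alternatives the log2 fold change ranged from 2.54 to 2.90 for Nupr1, 0.80 to 0.88 for Atf4, 0.32 to 0.37 for Slc7a11 and 1.77 to 1.86 for Ern1. The other members, Atf3 aside, stayed between -0.18 and 0.15, and Atf3 between -0.42 and -0.02. The number of other pathway genes called, 2, was 1 with DESeq2 and ran from 1 to 3 over the fits that omitted a library. It was 1 without any one of the CitH3+dsDNA replicates and without control replicate 2, with Aldh18a1 lost each time, and without control replicate 3 Aldh18a1 gave way to Edem3 and Hspe1 (adjusted p = 0.0154 and 0.0293 in edgeR). Aldh18a1 was at an adjusted p of 0.132 with DESeq2 and 0.376 with robust dispersion estimates in edgeR, and over all alternatives between 7.67e-08 and 0.376. Edem3 was also called with robust dispersion estimates (adjusted p = 0.0281 in edgeR) and with no filter (adjusted p = 0.0358). Bcl2l11 was called in all 14, at 2.13 to 2.30 (adjusted p 1.84e-30 to 4.36e-06). The cause was not tested. Over all genes, 164 to 376 were called in place of 277, the lowest number without CitH3+dsDNA replicate 1. With the replicate number as a block, 212 genes were called, 3 of them in the integrated stress response arm, 1 in the unfolded protein response arm and 2 among the other pathway genes, and the arms' medians were -0.03 and -0.01. The numbers do not pair the libraries, since deviations from the group means correlated at -0.0356, -0.0283 and 0.0268 across genes for libraries of the same number. Depth limits Atf3, Gdf15, Fgf21, Stc2 and Cebpd, for which only large differences were detectable.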

Other observations

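Stress programmes of other compartments were also measured, beside 2.20% called and 13.9% at an unadjusted p under 0.05 over all genes tested. Of the cytosolic heat shock genes, targets of HSF1 such as Hspa8, Hsp90aa1, Hsph1 and Dnajb1, 0 of 10 tested were called in edgeR (1 at an unadjusted p under 0.05, 0 by DESeq2), with log2 fold changes of -0.13 to 0.06. The one at an unadjusted p under 0.05 was Dnajb1, a co-chaperone of HSP70, with 1466, 1531 and 1530 counts after CitH3+dsDNA against 1632, 1722 and 1630 in controls. Hspa1a, the inducible HSP70 gene, reached no more than 4 counts and was not tested. Of the mitochondrial chaperones and proteases, 0 of 8 tested were called in edgeR (1 at an unadjusted p under 0.05, 0 by DESeq2), with log2 fold changes of -0.14 to 0.07. The lowest was Hspe1, which encodes the co-chaperonin HSP10, with 3086, 3171 and 3276 counts against 3498, 3923 and 3296.

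Among the 44 members, 0 had group counts that were 3 consecutive integers, in either group. Over all 12591 genes tested, such runs occurred in 60 genes after CitH3+dsDNA and in 73 in controls.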
